A study of Mus musculus with 78 samples.

Results

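Wnt ligands are secreted, lipid-modified glycoproteins that bind Frizzled receptors and, in the canonical branch, the co-receptors Lrp5 and Lrp6. Receptor engagement stops the cytoplasmic destruction complex from degrading beta-catenin (Ctnnb1), which then enters the nucleus and acts through the TCF/LEF factors, and Axin2, Nkd1 and Sp5 are well-known transcriptional targets, the first pair acting as feedback inhibitors. In mouse embryonic stem cells (mESCs) the pathway is known for supporting self-renewal, and in the embryo for inducing the primitive streak. The genes described here were taken by symbol from the deposited RNA tables: every Wnt and every Frizzled gene, and 12 further genes of the pathway (Ctnnb1, Lrp5, Lrp6, Lef1, Tcf7, Tcf7l1, Tcf7l2, Axin2, Nkd1, Sp5, Dkk1 and Rspo3). They were 41 of the 54446 genes listed, made up of 19 Wnt ligands, 10 Frizzled receptors, 4 TCF/LEF factors, 2 co-receptors, 2 feedback targets and 1 gene each for beta-catenin, the target Sp5, the secreted inhibitor Dkk1 and the agonist Rspo3. The rule uses gene names alone and no measured value.

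The study degraded TRIM28, the corepressor that recruits the H3K9me3 machinery to endogenous retroviruses (ERVs), and asked what acute loss does to transcription. The cells were V6.5 mESCs whose endogenous Trim28 alleles carry an N-terminal FKBP degron with mRuby2, grown from a picked colony in serum and LIF after removal of feeders, and dTAG-13 at 500 nM is the ligand that triggers degradation. Poly(A) RNA-seq was made in DMSO and after 2, 6, 24 and 96 h of dTAG-13, and TT-SLAM-seq, which sequences RNA labelled for 15 min with 4-thiouridine, in DMSO and after 2, 6 and 24 h, with 3 libraries in each group. The DMSO libraries of both assays are titled as 0 h, and neither assay has a DMSO group titled with a later time. Time in culture and dTAG-13 therefore cannot be told apart in them. Total RNA-seq came from a derivative of the degron line with doxycycline (Dox)-inducible short hairpins against the IAP, MMERVK10C, MMERVK9C and MMETn families of ERVs, called the shERV line here, in DMSO, dTAG-13 and Dox with dTAG-13 for 24 h, again 3 libraries each. For all groups of that line the labels describe a pretreatment of 24 h with 2 µg/ml Dox, whereas the methods of the study give Dox to the third group, so whether the first pair of groups was exposed to Dox is unsettled. Untagged parental V6.5 mESCs without treatment, whose labels mention a feeder layer of irradiated fibroblasts, and neural progenitor cells (NPCs) kept in DMSO had 3 libraries each. Peaks of H3K27Ac and H3K9me3 (3 libraries a group) and of RNA polymerase II (RNAPII) and the Mediator subunit MED23 (2 libraries a group) were deposited for DMSO and 24 h of dTAG-13. The study describes the time course, TT-SLAM-seq and shERV libraries as biological replicates. The labels do not say for any group whether libraries came from separate cultures, so p-values measure the spread between these libraries.

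The start regions of 5 genes on which the results below turn are shown first: Wnt6, Dkk1 and Wnt3, which had some of the largest changes in steady-state or nascent RNA, and Axin2 and Sp5, the targets commonly read as pathway output. Each stretch runs 5′ to 3′ on the strand of its gene from 250 bases before to 50 bases after the RefSeq start (GRCm38.p6, the mm10 build), and capitals mark a word of the TCF/LEF type, that is CTTTG followed by AA, AT, TA or TT, on either strand. Positions are those of the leftmost base, with 1 at the start. The windows lie at chr1:74771642-74771941 (+) for Wnt6, chr19:30549447-30549746 (−) for Dkk1, chr11:103773925-103774224 (+) for Wnt3, chr11:108920099-108920398 (+) for Axin2 and chr2:70474673-70474972 (+) for Sp5.
Wnt6: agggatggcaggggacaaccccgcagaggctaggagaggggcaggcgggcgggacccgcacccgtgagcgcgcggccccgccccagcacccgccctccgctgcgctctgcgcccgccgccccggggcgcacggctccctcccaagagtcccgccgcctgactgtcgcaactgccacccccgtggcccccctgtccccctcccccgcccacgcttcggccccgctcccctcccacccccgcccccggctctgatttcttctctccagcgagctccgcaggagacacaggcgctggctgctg
Dkk1: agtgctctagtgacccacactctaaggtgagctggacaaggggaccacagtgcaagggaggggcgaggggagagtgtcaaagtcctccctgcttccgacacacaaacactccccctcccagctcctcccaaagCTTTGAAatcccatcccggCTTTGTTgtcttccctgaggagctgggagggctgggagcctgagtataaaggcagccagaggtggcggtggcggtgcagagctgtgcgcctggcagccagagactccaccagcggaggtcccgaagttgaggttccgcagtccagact
Wnt3: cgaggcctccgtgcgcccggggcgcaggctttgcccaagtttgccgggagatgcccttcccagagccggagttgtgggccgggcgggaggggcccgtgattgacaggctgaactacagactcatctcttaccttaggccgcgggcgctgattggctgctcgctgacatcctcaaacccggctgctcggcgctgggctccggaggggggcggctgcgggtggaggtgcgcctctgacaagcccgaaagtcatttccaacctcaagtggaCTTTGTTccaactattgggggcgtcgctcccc
Axin2: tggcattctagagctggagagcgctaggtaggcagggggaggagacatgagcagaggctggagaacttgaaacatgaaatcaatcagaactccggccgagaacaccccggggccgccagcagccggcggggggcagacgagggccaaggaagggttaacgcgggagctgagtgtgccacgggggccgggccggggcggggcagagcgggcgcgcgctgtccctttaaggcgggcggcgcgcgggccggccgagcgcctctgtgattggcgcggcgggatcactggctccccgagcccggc
Sp5: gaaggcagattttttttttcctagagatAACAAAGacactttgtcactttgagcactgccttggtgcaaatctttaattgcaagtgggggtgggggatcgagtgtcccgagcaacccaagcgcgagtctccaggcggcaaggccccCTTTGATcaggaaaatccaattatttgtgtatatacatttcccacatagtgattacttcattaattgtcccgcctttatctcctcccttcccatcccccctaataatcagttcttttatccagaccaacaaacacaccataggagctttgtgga

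A promoter was available for 30 of the 41 genes, and 5 of these (16.7%) held at least 1 such word, Fzd7, Wnt11, Wnt3, Dkk1 and Sp5, against 16.9% of all 32817 promoters in the table. Sp5 held AACAAAG, which is CTTTGTT on the other strand, at −222 and CTTTGAT at −104, while Dkk1 held words at −117 and −98 and Wnt3 held one at position 19, past its start. The Wnt6 and Axin2 windows held none, which says only that these letters were absent from 300 bases. The promoters of the group were rich in G and C: the median one had 31.5 CpG dinucleotides and 71.5% G and C, against 7 and 52.7% over all promoters. Several of the ligands lie side by side in the genome, Wnt6 and Wnt10a 6.2 kb apart on chromosome 1 on the same strand. Other such pairs are Wnt9b and Wnt3 24.3 kb apart and Wnt3a and Wnt9a 16.2 kb apart on chromosome 11, and Wnt10b and Wnt1 11.7 kb apart on chromosome 15.

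Levels of RNA are given as TPM, a unit scaled for transcript length and library total, and changes as log2 differences of TPM + 0.5, a scale that understates the change of genes near zero. A gene was tested when at least 3 libraries of a fit reached 1 TPM, and was called changed when limma gave an adjusted p under 0.05 over all genes tested and the difference exceeded 2-fold. The words rose and fell are kept for such calls. Coverage per library, relative to the median library, spanned 0.341 to 1.44 in the time course, with the lowest in the first 24 h library, 0.837 to 1.14 in the shERV line and 0.876 to 1.64 in the parental line and NPCs. Trim28 itself read 622.5, 622.5 and 626.4 TPM in DMSO, 369.0, 364.8 and 382.4 TPM at 24 h and 186.3, 185.3 and 203.5 TPM at 96 h, and its mRNA does not show how much protein was left. The summed level of 10 pluripotency genes lay between 2058.0 and 2130.9 TPM in DMSO, between 1191.2 and 1309.9 TPM at 24 h and between 255.4 and 285.2 TPM at 96 h.

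In DMSO the receptors and transducers were the abundant part of the pathway and the ligands were mostly low. Ctnnb1 led with 407.0, 425.5 and 387.6 TPM, followed by the TCF/LEF factors Tcf7l1 (86.2, 87.5 and 92.2 TPM), known as a repressor of pluripotency genes, and Tcf7 (68.7, 70.9 and 75.2 TPM). Each of these 3 stood clear of the next in the order, since their libraries did not overlap. Fzd7, the main Frizzled of mESCs, read 45.5, 44.6 and 44.1 TPM, ahead of Lrp5 (36.6, 36.3 and 37.3 TPM) and Fzd2 (29.1, 28.2 and 28.9 TPM). Lef1, Lrp6 and Fzd5 came next at 25.9 ± 0.81, 24.9 ± 0.943 and 24.0 ± 0.646 TPM (mean ± SD, n = 3), and the libraries of Lrp6 overlapped those of both neighbours. Among ligands Wnt7b reached 18.8, 18.4 and 18.9 TPM, well above Wnt8a (5.10 ± 0.594 TPM), Wnt4 (4.79 ± 0.327 TPM) and Wnt3 (3.82 ± 0.15 TPM), and Axin2, Tcf7l2 and Sp5 lay at 13.4 ± 0.821, 13.3 ± 0.375 and 12.4 ± 1.43 TPM with overlapping libraries. Of the 41 genes, 35 passed the filter of the time course. Wnt1, Wnt2, Wnt3a, Wnt8b, Wnt9b and Wnt16 did not, and Wnt1 was listed at 0 in every library. Wnt10a, Wnt11, Rspo3 and Dkk1 passed only through the 96 h group.

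After 2 h of dTAG-13 no gene of the pathway met both criteria in limma, against 0.374% of all genes. Of the 35, 14 had an unadjusted p under 0.05 in limma. That is another criterion, for which no share of all genes is given, so the count shows no excess. The differences that passed the adjusted p alone were small. The receptor Fzd6 stood at 6.38, 6.47 and 6.47 TPM in DMSO and at 9.07, 9.39 and 9.56 TPM at 2 h, a log2 difference of 0.50 (limma adjusted p = 1.57e-05). Axin2 read 12.5, 13.8 and 13.9 TPM against 19.8, 17.7 and 17.2 TPM, a log2 difference of 0.43 (limma adjusted p = 0.000284). Sp5 read 10.9, 12.8 and 13.7 TPM against 17.8, 15.6 and 14.3 TPM, or 0.34 (limma adjusted p = 0.025). All 3 lay closer to DMSO at 6 h, Fzd6 at 7.18, 6.97 and 7.02 TPM, Axin2 at 14.5, 14.0 and 13.8 TPM and Sp5 at 10.7, 12.8 and 11.0 TPM. Lef1 was already lower at 2 h, with 21.3, 21.8 and 20.4 TPM against 25.0, 26.5 and 26.1 TPM in DMSO, a log2 difference of −0.28 (limma adjusted p = 0.00149).

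At 6 h 1 gene was called, against 0.965% of all genes in either direction and 0.776% higher. Wnt8a, a ligand of the early embryo, read 4.84, 4.68 and 5.78 TPM in DMSO, 7.31, 5.57 and 6.44 TPM at 2 h and 11.3, 11.1 and 11.7 TPM at 6 h, then 8.02, 7.42 and 6.54 TPM at 24 h and 3.63, 4.25 and 4.37 TPM at 96 h. It rose 2.12-fold at 6 h (log2 1.09 ± 0.11 SE, limma adjusted p = 1.35e-05), above every other group. The call rests on the 2-fold limit, since centring each library on its median gave a log2 difference of 1.00. Tcf7l1 was at 124.2, 103.5 and 111.8 TPM at 6 h, above every DMSO library (log2 0.35, limma adjusted p = 0.000347), and returned to 83.3, 82.6 and 81.6 TPM at 24 h. Lef1 read 21.0, 19.9 and 19.2 TPM (log2 −0.36, limma adjusted p = 0.00013) and Fzd5 18.0, 19.2 and 19.0 TPM against 24.1, 23.3 and 24.6 TPM (log2 −0.35, limma adjusted p = 0.000139).

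At 24 h 3 of the 35 tested genes were called (8.57%), close to and below the 12.2% of all genes, 2 higher, against 10.1%, and 1 lower, against 2.01%. The median log2 difference of the tested genes was 0.39, against 0.13 over all genes. Of the 10 Frizzled receptors 1 was called, but 8 were higher and 2 lower with no overlap between groups, against 43.9% and 26.2% of all genes. Fzd6 rose from the DMSO levels given above to 18.0, 17.6 and 18.7 TPM (2.68-fold, log2 1.42 ± 0.05 SE, limma adjusted p = 2.34e-11). Fzd4 went from 2.32, 2.65 and 2.37 TPM to 4.55, 4.68 and 5.18 TPM (log2 0.85, limma adjusted p = 2.37e-06), while Fzd7 read 54.3, 52.4 and 51.1 TPM (log2 0.23), a sign that turned when libraries were centred on their median. Centring lowered every change at 24 h by about 0.29, the difference between the library medians. With it 5 of the receptors kept a higher level at an adjusted p under 0.05 in limma, against 8 without, since Fzd1 and Fzd2 (limma adjusted p = 0.0954 and 0.067) missed it as well as Fzd7, and the 2 lower ones kept theirs.

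Lef1, the TCF/LEF factor that also is a target of the pathway, had the largest change of the group at 24 h. It fell to 5.63, 5.59 and 5.98 TPM, 4.23-fold below DMSO (log2 −2.08 ± 0.05 SE, limma adjusted p = 2.42e-12), and read 16.3, 16.4 and 16.2 TPM at 96 h, so its lowest level was at 24 h. Tcf7 read 102.7, 97.5 and 90.0 TPM at 24 h (log2 0.43, limma adjusted p = 1.18e-05), above all DMSO libraries, and Tcf7l2 showed no separation. The targets did not move together. Nkd1 rose from 1.93, 1.93 and 2.03 TPM to 5.00, 3.81 and 4.59 TPM (2.01-fold, log2 1.00 ± 0.09 SE, limma adjusted p = 2.18e-07), just at the 2-fold limit. Without 24 h replicate 1 or 3 (log2 0.93 and 0.98), without the first or second DMSO library (1.00 and 0.99) or with centring (0.72) it was at or under that limit and not called. Axin2 was higher at 20.1, 18.8 and 19.2 TPM (log2 0.51, limma adjusted p = 2.31e-06), and Sp5 was lower at 9.47, 8.75 and 9.17 TPM (log2 −0.42, limma adjusted p = 0.00125). Among ligands Wnt9a had 6.95, 7.53 and 7.94 TPM against 4.13, 3.80 and 4.16 TPM (log2 0.81, limma adjusted p = 1.18e-06). Wnt3 had 5.16, 5.49 and 6.54 TPM against 3.72, 3.74 and 3.99 TPM (log2 0.52, limma adjusted p = 0.000684). Wnt4 had 2.65, 2.11 and 2.58 TPM against 4.47, 4.77 and 5.13 TPM (log2 −0.85, limma adjusted p = 5.57e-06). None of these 3 ligands reached 2-fold.

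**Figure D1:**
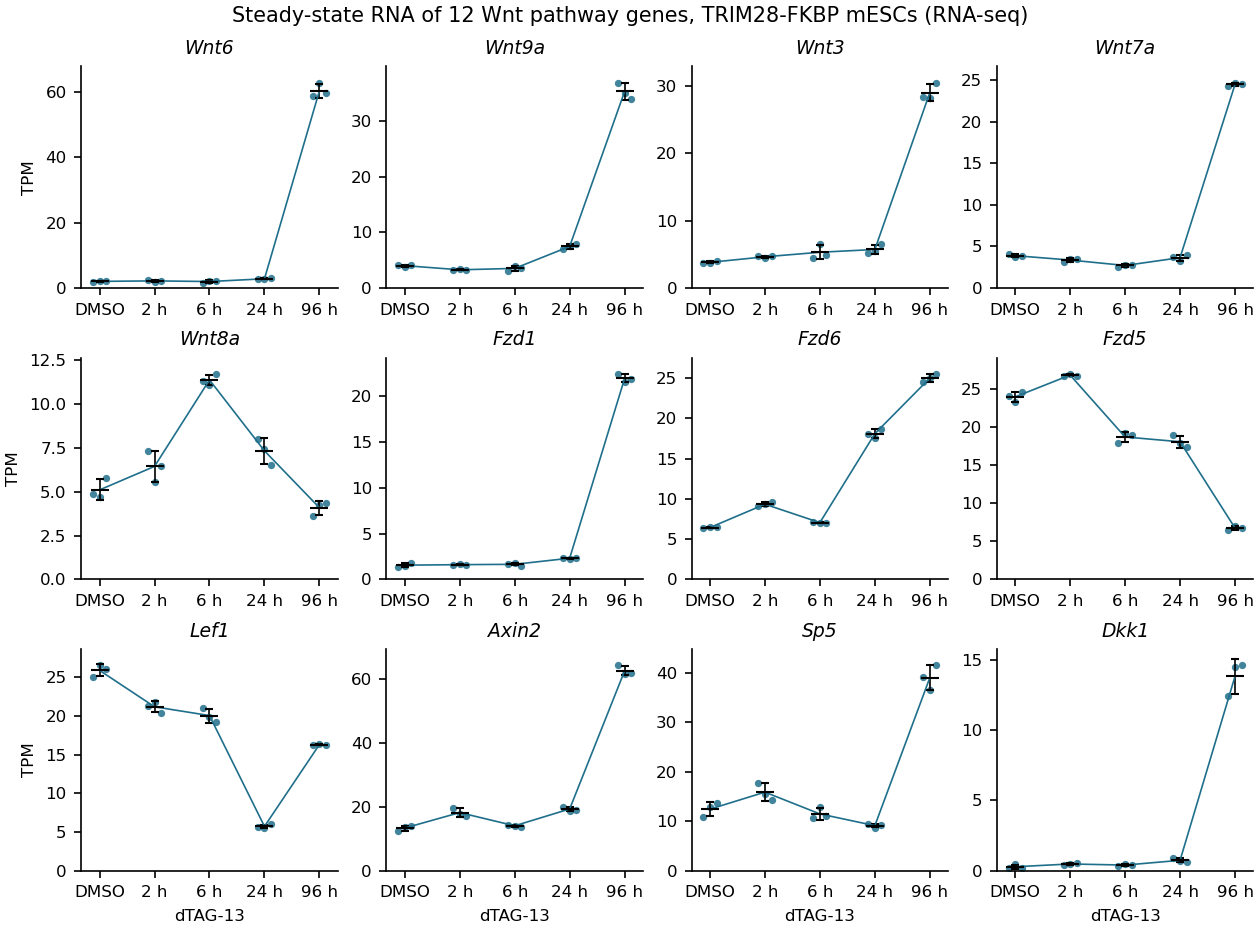
TPM of 12 Wnt pathway genes in each library of the degron line in DMSO and after 2, 6, 24 and 96 h of dTAG-13. Points are libraries, bars the mean ± SD (n = 3) and the line joins the means, with each panel on its own axis from 0. Wnt8a peaks at 6 h with 11.1 to 11.7 TPM, Lef1 has its lowest level at 24 h, and Wnt6, Wnt9a, Wnt3, Wnt7a, Fzd1, Axin2, Sp5 and Dkk1 are highest at 96 h.

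At 96 h most of the pathway had changed. In limma 23 of the 35 tested genes (65.7%) were called, against 32.7% of all genes: 21 rose, against 20.3%, and 2 fell, against 12.4%. The median log2 difference was 1.48 over the tested genes and 0.05 over all genes. Because 4 of the genes entered the fit only through the 96 h libraries and so had to differ, the same count was taken over the other 31, where 17 rose and 2 fell with a median of 1.23. No DMSO group was titled 96 h, so dTAG-13 and the longer time in culture cannot be told apart here. The bulk libraries cannot tell fewer cells of a type from less RNA per cell.

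The ligands gave the largest number of these calls, with 11 of 13 tested ligands up and a median of 2.51, or 9 of 11 with the same median without Wnt10a and Wnt11, which were tested only through the 96 h libraries. Wnt6, a canonical ligand that lies beside Wnt10a and whose start is shown above, went from 1.90, 2.06 and 2.17 TPM to 58.8, 62.9 and 59.6 TPM (23.9-fold, log2 4.58 ± 0.11 SE, limma adjusted p = 4.44e-14), most of it after 24 h, when it read 2.73, 2.85 and 2.94 TPM. Wnt9a went from 4.13, 3.80 and 4.16 TPM to 36.9, 35.1 and 34.0 TPM (7.91-fold, limma adjusted p = 2.87e-13). Wnt3, the ligand that is required for primitive streak formation, went from 3.72, 3.74 and 3.99 TPM to 28.4, 28.2 and 30.5 TPM (6.83-fold, limma adjusted p = 8.34e-12). Wnt7b, the most abundant ligand in DMSO, rose to 52.5, 54.0 and 52.3 TPM (2.78-fold, limma adjusted p = 4.68e-11), and every one of its libraries lay below those of Wnt6 and above those of the other ligands. Wnt7a rose from 4.10, 3.78 and 3.81 TPM to 24.3, 24.7 and 24.5 TPM (5.69-fold, limma adjusted p = 7.18e-13), while its 24 h libraries (3.79, 3.24 and 3.94 TPM) overlapped DMSO. Wnt4, which had been lower at 24 h, rose to 13.3, 13.2 and 13.5 TPM (2.63-fold, limma adjusted p = 1.15e-08). Wnt5a, the usual ligand of the beta-catenin-independent branch, went from 0.833, 0.707 and 1.09 TPM through 0.352, 0.269 and 0.444 TPM at 24 h to 3.04, 2.39 and 2.71 TPM (2.34-fold, limma adjusted p = 1.13e-05). With centring it was under 2-fold (log2 0.95). Wnt4 and Wnt5a thus crossed their DMSO level between 24 and 96 h.

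Among ligands near zero in DMSO, Wnt2b went from 0.950, 0.800 and 0.808 TPM to 15.2, 15.5 and 15.7 TPM (11.8-fold, limma adjusted p = 5.48e-11). Wnt10b went from 0.593, 0.398 and 0.863 TPM to 8.83, 9.84 and 9.56 TPM (8.99-fold, limma adjusted p = 6e-10). Wnt10a, the neighbour of Wnt6, went from 0.264, 0.258 and 0.230 TPM to 4.74, 4.72 and 5.10 TPM (7.13-fold, limma adjusted p = 1.73e-10). Wnt11 went from 0.485, 0.509 and 0.327 TPM to 3.03, 3.15 and 2.37 TPM (3.56-fold, limma adjusted p = 1.78e-05). These folds are on the scale with 0.5 added and so lie below the ratio of the TPM values. Wnt8a and Wnt5b were not called, with 3.63, 4.25 and 4.37 TPM (log2 −0.29) and 3.83, 4.05 and 4.29 TPM (log2 0.70).

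The Frizzled receptors divided, 4 rising and 2 falling. Fzd1 rose from 1.38, 1.52 and 1.77 TPM to 22.4, 21.5 and 21.9 TPM (10.9-fold, log2 3.45, limma adjusted p = 6.7e-14), having been at 2.36, 2.26 and 2.33 TPM at 24 h. Fzd8 rose from 2.70, 3.00 and 2.60 TPM to 21.8, 20.6 and 19.6 TPM (6.48-fold, limma adjusted p = 2.64e-12). Fzd2 rose from 29.1, 28.2 and 28.9 TPM to 108.8, 108.7 and 109.7 TPM (3.75-fold, limma adjusted p = 4.23e-12) and Fzd6 to 24.5, 25.0 and 25.5 TPM (3.67-fold, limma adjusted p = 6.05e-14). Fzd2 thus took the place of Fzd7, which read 42.1, 41.8 and 43.7 TPM, as the most abundant Frizzled. Fzd5 fell from 24.1, 23.3 and 24.6 TPM to 6.48, 7.02 and 6.77 TPM (3.38-fold, log2 −1.76, limma adjusted p = 1.53e-13), after 19.0, 17.9 and 17.4 TPM at 24 h. Fzd9 fell from 4.74, 5.20 and 5.08 TPM to 1.09, 1.14 and 1.49 TPM (3.18-fold, log2 −1.67, limma adjusted p = 2.24e-09). Fzd3, Fzd4, Fzd7 and Fzd10 were not called, and their log2 differences lay between −0.34 (Fzd4) and 0.87 (Fzd10).

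Co-receptors and transducers moved less. Lrp5 rose from 36.6, 36.3 and 37.3 TPM to 83.6, 81.9 and 82.7 TPM (2.24-fold, log2 1.16, limma adjusted p = 1.34e-12), a rise that dropped under 2-fold when libraries were centred (log2 0.88), whereas Lrp6 read 30.2, 28.8 and 28.8 TPM. Ctnnb1 was at 618.3, 621.3 and 622.6 TPM, above every DMSO library (log2 0.61, limma adjusted p = 1.46e-09) and below 2-fold. No TCF/LEF factor was called: Tcf7l2 had a log2 difference of 0.79 (22.8, 24.5 and 22.7 TPM against 13.7, 12.9 and 13.2 TPM), Lef1 one of −0.65, and Tcf7 and Tcf7l1 lay at −0.19 and −0.06.

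All 3 genes taken here as targets rose. Axin2 reached 64.3, 61.6 and 62.0 TPM from 12.5, 13.8 and 13.9 TPM (4.54-fold, log2 2.18, limma adjusted p = 1.29e-13). Nkd1 reached 13.9, 13.9 and 13.1 TPM from 1.93, 1.93 and 2.03 TPM (5.74-fold, log2 2.52, limma adjusted p = 2.63e-12). Sp5 reached 39.1, 36.5 and 41.5 TPM from 10.9, 12.8 and 13.7 TPM (3.07-fold, log2 1.62, limma adjusted p = 7.2e-10). The secreted inhibitor Dkk1 rose from 0.195, 0.469 and 0.201 TPM to 12.4, 14.5 and 14.6 TPM (18.4-fold, log2 4.20, limma adjusted p = 2.68e-12), with 0.917, 0.690 and 0.633 TPM at 24 h. The agonist Rspo3, which prolongs Frizzled residence at the membrane, went from 0.213, 0.236 and 0.226 TPM to 5.87, 5.62 and 4.31 TPM (7.9-fold, log2 2.98, limma adjusted p = 9.09e-11). Dkk1 and Rspo3 were among the genes tested only through the 96 h libraries.

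Markers of other cell types changed with these genes. A list of 12 endoderm genes summed to 455.6 to 475.3 TPM in DMSO and to 2189.4 to 2224.9 TPM at 96 h. A list of 12 feeder fibroblast genes summed to 391.3 to 405.5 TPM and 3961.6 to 4120.8 TPM, and a list of 10 primitive streak and mesoderm genes to 18.7 to 22.8 TPM and 74.4 to 86.7 TPM. Of these genes 8 of the endoderm list and 9 of the fibroblast list rose, and 1 endoderm gene fell. Most of the endoderm sum was Sparc (means of 261.3 TPM in DMSO and 1405.4 TPM at 96 h). Of the primitive streak and mesoderm list 2 of 6 tested genes rose, Hand1 from 7.24 to 63.7 TPM and Fgf8 from 2.77 to 7.21 TPM, and the median log2 difference of the 6 was −0.04, so most of its sum was Hand1. Of the fibroblast list Lum was at 0 in DMSO. Most of the sum of that list was Tagln (means of 299.7 TPM in DMSO and 2588.3 TPM at 96 h) and Acta2 (74.6 and 1170.3 TPM). At 24 h that list summed to 320.8 to 388.1 TPM. Their part in the Wnt pathway changes was not tested.

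**Figure D2:**
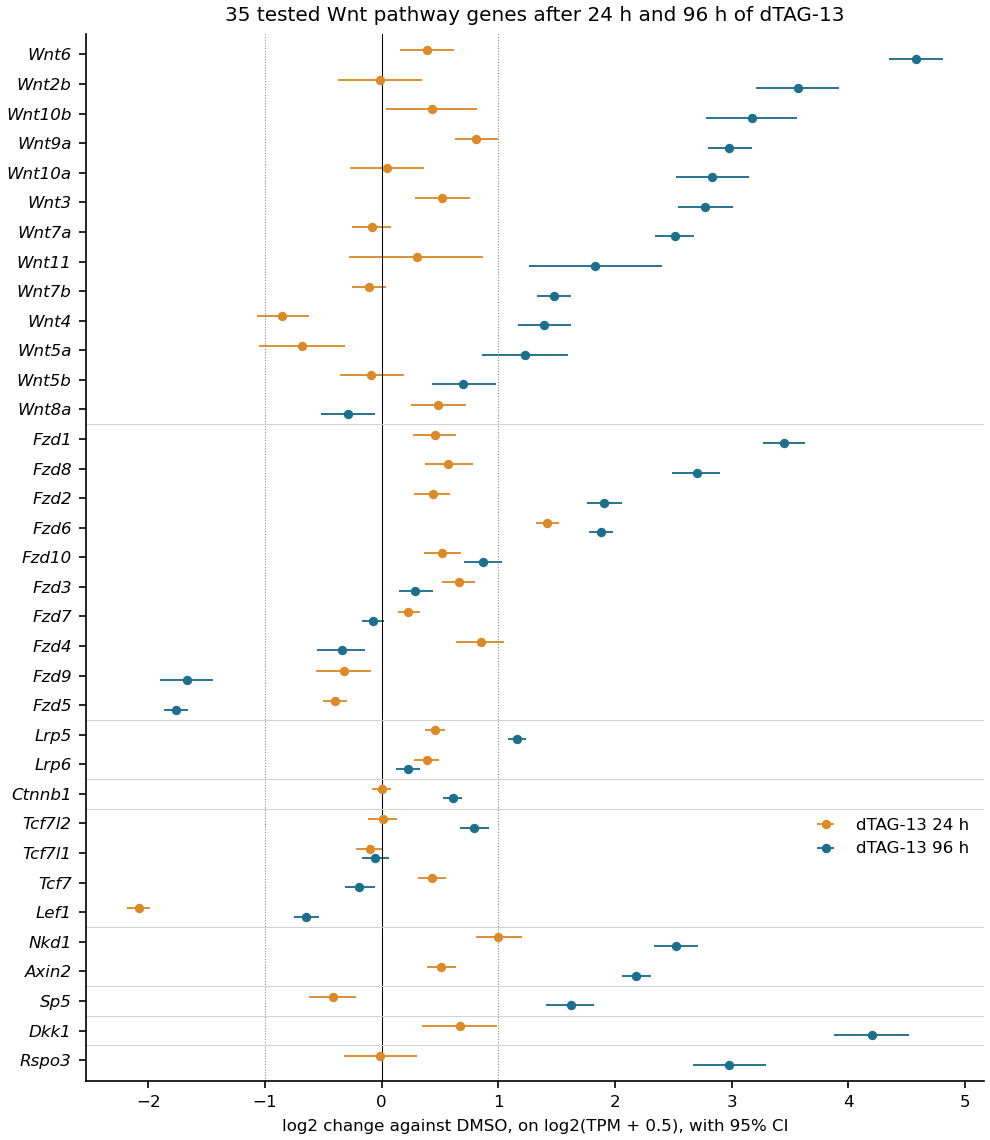
Log2 difference from DMSO of the 35 tested Wnt pathway genes after 24 h and 96 h of dTAG-13, ordered by role, with 95% confidence intervals from limma and log2(TPM + 0.5) as the scale. At 24 h Lef1 stands apart at −2.08 and Fzd6 at 1.42, and at 96 h 21 genes lie past 2-fold above DMSO, Wnt6 highest at 4.58.

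Of 80 further pathway genes on a list of secretion factors, inhibitors, transducers and targets, 70 were tested. At 24 h 3 rose and 4 fell (10.0% called, against 12.2% of all genes), and at 96 h 22 rose and 6 fell (40.0%, against 32.7%), that is 31.4% higher, against 20.3%, and 8.57% lower, against 12.4%. At 24 h Myc, a target in other tissues, fell from 124.7 to 20.2 TPM (means of 3), Ccnd1 from 168.2 to 73.6 TPM and the corepressor Tle4 from 99.9 to 41.5 TPM. Rnf43, a ligase that removes Frizzled from the membrane and is itself a target, rose from 0.890 to 3.48 TPM. At 96 h all 6 genes of Wnt secretion and release were called, 5 higher and 1 lower: Wls, which carries Wnts to the cell surface, rose from 18.6 to 302.9 TPM (log2 3.99, limma adjusted p = 1.36e-14), and Porcn, which attaches their lipid, fell from 24.3 to 6.08 TPM (log2 −1.91, limma adjusted p = 3.57e-10). Among secreted inhibitors Dkk3 rose to 31.8 TPM and Sfrp4 fell to 0.139 TPM, from 1.97 and 2.36 TPM. The largest fall of this list at 96 h was that of Myc, to 27.2 TPM (log2 -2.17, limma adjusted p = 5.67e-14).

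In nascent RNA by TT-SLAM-seq the deposited values are FPKM over the whole gene span, introns included, so they are not on the scale of TPM, and 19 of the 41 genes reached the minimum of 0.5 FPKM in 3 libraries. In limma none of them was called at 2, 6 or 24 h, against 0.225%, 0.569% and 3.40% of all genes. At those times 10, 8 and 13 had an unadjusted p under 0.05 in limma, without a share of all genes to set beside them. Wnt7b and Wnt8a would not have passed the filter without the 2 h libraries, nor Wnt8a without the 6 h libraries. With both genes left out, none of 17 was called at 2 h. The pseudocount of 0.5 is large beside these values, so read numbers recovered from the FPKM steps were also fitted with voom in limma, which tested 35 of the genes and called 1, 0 and 5 of them, against 2.03%, 1.78% and 12.8% of all genes. By voom 17, 9 and 20 of the 35 had an unadjusted p under 0.05 in limma at 2, 6 and 24 h, again without a share of all genes beside them. The 12 libraries had 6478940 to 24246384 reads behind their scaling.

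Wnt3 was the gene called in nascent RNA at 2 h. It stood at 0.191, 0.147 and 0.136 FPKM in DMSO, 0.471, 0.452 and 0.504 FPKM at 2 h, 0.363, 0.336 and 0.312 FPKM at 6 h and 0.500, 0.448 and 0.528 FPKM at 24 h, on 61, 81 and 68 reads in DMSO and 336, 281 and 311 reads at 2 h. By voom it rose 3.32-fold at 2 h (log2 1.73 ± 0.17 SE, limma adjusted p = 2.92e-06) and 2.45-fold at 24 h (limma adjusted p = 6.03e-06), and all 9 treated libraries lay above all 3 DMSO libraries. Its steady-state RNA at 2 h was 4.76, 4.47 and 4.70 TPM, above the DMSO libraries without passing the adjusted test (log2 0.25, limma adjusted p = 0.141). Wnt9a followed at 24 h, with 0.587, 0.461 and 0.539 FPKM against 0.144, 0.197 and 0.158 (2.41-fold by voom, limma adjusted p = 0.000258).

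Lef1 was different at each time. Its nascent RNA was 0.633, 0.516 and 0.600 FPKM in DMSO, 0.852, 0.926 and 0.722 FPKM at 2 h, 1.16, 1.05 and 0.948 FPKM at 6 h and 0.250, 0.218 and 0.211 FPKM at 24 h. The 2 h and 6 h libraries were all above DMSO (voom log2 0.64 and 0.73, limma adjusted p = 0.000671 and 0.000156), while its steady-state RNA at those times was below DMSO. At 24 h both were lower, nascent RNA 3.24-fold by voom (log2 −1.69, limma adjusted p = 5.07e-09). Fzd6 gave the opposite order at 2 h, with nascent RNA of 0.466, 0.497 and 0.351 FPKM against 0.695, 0.629 and 0.649 (log2 −0.31, limma adjusted p = 0.0481) beside the higher steady-state RNA given above. At 24 h it read 1.32, 1.47 and 1.47 (log2 0.73, limma adjusted p = 8.62e-05). The 2 assays select RNA in different ways, and the difference between them was not itself tested.

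The targets differed as well. Axin2 had 1.10, 1.00 and 0.931 FPKM in DMSO, 1.09, 1.11 and 1.01 FPKM at 2 h, 0.702, 0.883 and 0.865 FPKM at 6 h and 1.95, 1.79 and 1.80 FPKM at 24 h (log2 0.63, limma adjusted p = 0.00016), its 24 h libraries above all others. By voom Axin2 was below DMSO at 6 h (log2 -0.43, limma adjusted p = 0.0144) and above it at 24 h (log2 0.52, limma adjusted p = 0.000856), both within 2-fold. Sp5 had 2.49, 1.81 and 1.78 FPKM in DMSO, 2.49, 3.06 and 3.26 FPKM at 2 h, 0.990, 1.48 and 1.63 FPKM at 6 h and 1.53, 1.49 and 1.43 FPKM at 24 h. By voom it was above DMSO at 2 h (log2 0.67, limma adjusted p = 0.0387) and below at 24 h (log2 −0.75, limma adjusted p = 0.0134), both within 2-fold. Fzd10 was at 3.51, 2.98 and 4.23 FPKM at 24 h against 1.65, 1.49 and 1.62 (log2 0.96, limma adjusted p = 0.00153). Tcf7 was at 1.99, 2.04 and 1.76 against 0.984, 0.948 and 0.724 (log2 0.81, limma adjusted p = 0.000318), and Lrp5 at 1.18, 1.18 and 1.00 against 0.439, 0.513 and 0.461 (log2 0.74, limma adjusted p = 0.000112). For these 3 genes the 24 h libraries did not overlap the DMSO libraries. Wnt5a and Wnt3a were also called lower at 24 h by voom, on few reads (14, 32 and 21 in DMSO against 13, 12 and 5 for Wnt5a, and 6, 7 and 8 against 10, 1 and 3 for Wnt3a).

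**Figure D3:**
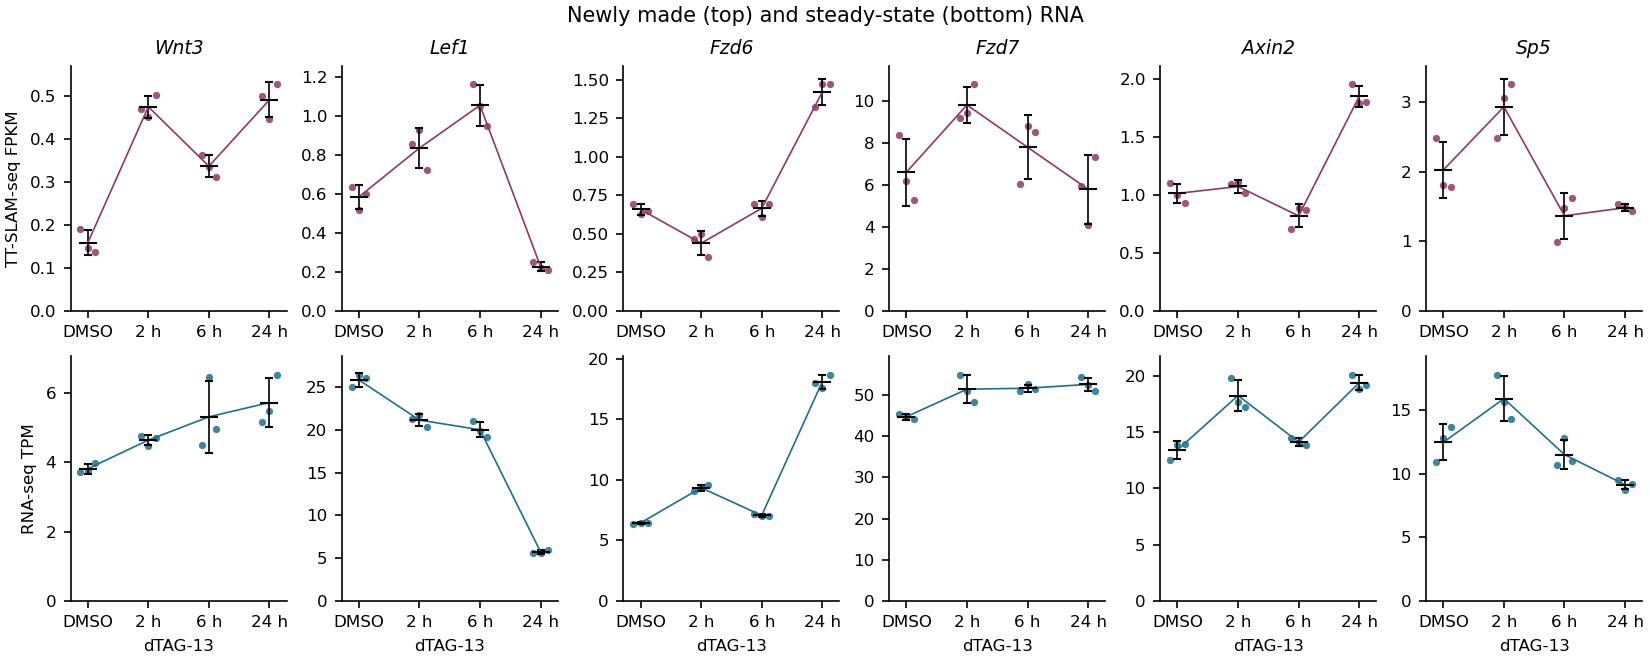
Nascent RNA in FPKM (top) and steady-state RNA in TPM (bottom) of Wnt3, Lef1, Fzd6, Fzd7, Axin2 and Sp5 in DMSO and after dTAG-13, with points for libraries and bars for the mean ± SD (n = 3). Nascent Wnt3 is higher in every library from 2 h on, while nascent Lef1 is highest at 6 h (0.948 to 1.16 FPKM) and lowest at 24 h (0.211 to 0.250 FPKM).

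In the shERV line the pathway was read after 24 h of dTAG-13 in groups titled without and with Dox, the inducer of the hairpins against ERVs. Whether the group titled without Dox was exposed to it is unsettled, as given above, and ERV transcripts were not measured here. Both comparisons use the same dTAG-13 libraries, so a high value there lowers the other comparison by itself, and only the levels are given side by side. Of 33 tested genes 2 rose with dTAG-13 (6.06%, against 3.82% of all genes in either direction and 2.38% higher), and 3 were lower with Dox and dTAG-13 than with dTAG-13 alone (9.09%, against 3.45% in either direction and 1.96% lower). By separation of groups, 23 were higher and 5 lower with dTAG-13, against 45.0% and 14.0% of all genes, and 21 were lower and 5 higher with Dox, against 36.0% and 22.8%. The median log2 difference of the tested genes was 0.39 for dTAG-13 and −0.34 for Dox, against 0.14 and −0.04 over all genes.

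Sp5 was called in both comparisons. It read 6.55, 6.76 and 6.85 TPM in DMSO, 17.9, 18.1 and 16.4 TPM with dTAG-13 (2.49-fold, log2 1.32 ± 0.06 SE, limma adjusted p = 3.4e-08) and 5.96, 5.88 and 6.23 TPM with Dox added (2.76-fold lower than dTAG-13, log2 −1.46, limma adjusted p = 1.48e-08). The Dox libraries thus lay below all 3 DMSO libraries. Fzd8 rose from 2.69, 3.39 and 3.22 TPM to 6.73, 7.74 and 8.49 TPM (log2 1.18, limma adjusted p = 2.55e-06) and read 3.71, 3.60 and 3.66 TPM with Dox (log2 −0.97 against dTAG-13). Wnt7a had 5.38, 5.45 and 5.74 TPM, then 12.0, 10.2 and 11.3 TPM (log2 0.95, limma adjusted p = 1.33e-06, just under 2-fold), and fell to 5.04, 5.29 and 5.45 TPM with Dox (2.01-fold, log2 −1.01, limma adjusted p = 9.01e-07), a call lost without the first dTAG-13 library (log2 −0.96) or the first Dox library (−0.98) and with centring (−0.94). Dkk1 had 1.21, 1.44 and 1.45 TPM, then 3.08, 2.56 and 3.22 TPM, and fell to 1.19, 1.19 and 0.970 TPM with Dox (2.13-fold, log2 −1.09, limma adjusted p = 2.63e-05).

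The other members that changed most stayed within 2-fold. Fzd6 read 8.19, 9.26 and 8.63 TPM in DMSO, 18.3, 16.1 and 17.4 TPM with dTAG-13 (log2 0.95, limma adjusted p = 6.69e-07) and 8.30, 8.64 and 9.07 TPM with Dox. Axin2 read 21.1, 23.2 and 23.8 TPM, then 38.0, 35.8 and 35.2 TPM (log2 0.67, limma adjusted p = 1.69e-06), then 24.2, 24.4 and 24.7 TPM. Fzd5 moved in the opposite direction, 14.1, 15.3 and 15.6 TPM, then 8.49, 7.73 and 8.29 TPM (log2 −0.84, limma adjusted p = 6.25e-07), then 16.4, 16.2 and 16.7 TPM. In each of these the dTAG-13 libraries stood apart from both other groups. Wnt3, Nkd1 and Wnt6 were likewise highest with dTAG-13, and Wnt8a had lower levels with dTAG-13 (2.98, 2.88 and 2.90 TPM) than in DMSO (4.33, 4.46 and 4.17 TPM) or with Dox (4.12, 4.71 and 4.05 TPM). On the wider list Rspo2, another R-spondin, rose from 0.411 to 1.84 TPM and fell to 0.507 TPM with Dox, and Porcn went from 16.0 to 7.31 and 16.1 TPM. The pluripotency list summed to 959.2 to 1078.2 TPM in DMSO, 497.9 to 502.3 TPM with dTAG-13 and 1046.7 to 1063.4 TPM with Dox. The fibroblast list summed to 1350.3 to 1430.5, 2034.4 to 2233.4 and 1435.3 to 1471.0 TPM. Of that list Tagln alone was called with dTAG-13, from a mean of 692.1 to 1389.4 TPM. The part of both lists in these results was not tested.

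**Figure D4:**
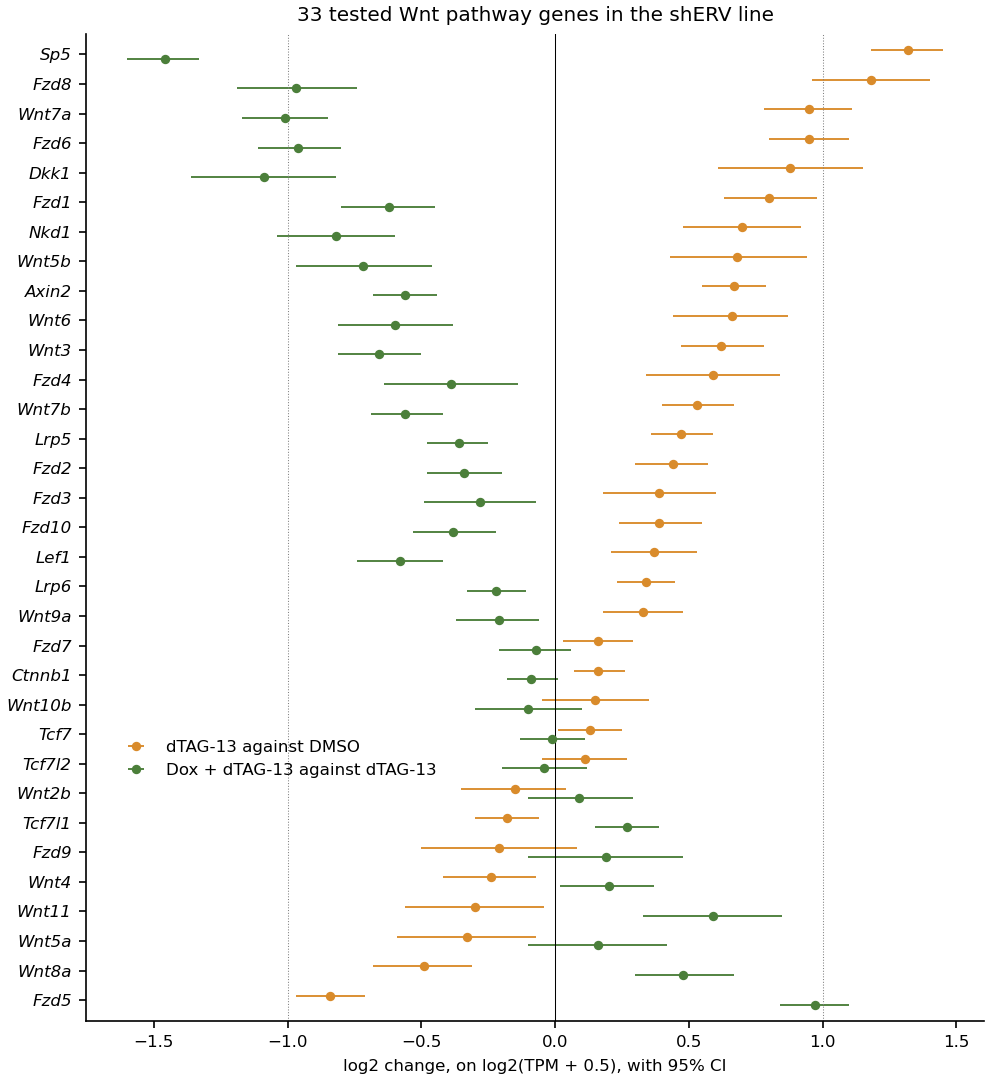
Log2 difference, on the log2(TPM + 0.5) scale with 95% confidence intervals from limma, of the 33 tested Wnt pathway genes in the shERV line, for dTAG-13 against DMSO and for Dox with dTAG-13 against dTAG-13. Sp5 stands farthest from 0 in both, at 1.32 and −1.46, and the 2 comparisons share the dTAG-13 libraries.

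The 24 h response to dTAG-13 could be set against that of the time course by an interaction term in one fit over both sets. It called 3 of 35 tested genes (8.57%), which is the share of all genes (8.60%), each with a more positive response in the shERV line, against 2.14%. Lef1 differed most, with a log2 change of −2.08 in the time course and 0.37 in the shERV line (10.4, 11.4 and 10.9 TPM against 14.4, 13.7 and 14.6 TPM), a difference of 2.45 ± 0.08 SE (limma adjusted p = 6.39e-14). Sp5 was lower in the time course (−0.42) and rose in the shERV line (1.32), a difference of 1.74 ± 0.12 SE (limma adjusted p = 6.36e-10). Wnt7a went from −0.08 to 0.95, a difference of 1.03 ± 0.10 SE (limma adjusted p = 8.29e-08). This call was lost with a pseudocount of 1 (log2 0.97) and without the first DMSO (1.00) or second 24 h (0.96) library of the time course or the first dTAG-13 library of the shERV line (0.98). Wnt8a had the opposite contrast, 0.48 and −0.49, with a difference of −0.98 (limma adjusted p = 5.32e-06) that was under 2-fold, and was called without DMSO replicate 3 or 24 h replicate 3 of the time course or DMSO replicate 3 of the shERV line. For Axin2, Fzd2, Lrp5 and Lrp6 the intervals of the difference were −0.01 to 0.32, −0.20 to 0.21, −0.11 to 0.14 and −0.19 to 0.09, none reaching 2-fold. The DMSO libraries are titled 0 h in the time course and 24 h in the shERV line. This time, the cell line, the RNA selection and possibly the Dox pretreatment differ between the sets and cannot be told apart.

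Against the untagged parental line and the NPCs the degron line in DMSO supplied a common reference. In parental cells 11 of 33 tested genes were called (33.3%, against 11.4% of all genes), 1 higher, against 2.25%, and 10 lower, against 9.15%, 8 of these being ligands, and the median log2 difference was −0.43, against −0.09 over all genes. Wnt3 was at 0.067, 0.097 and 0.144 TPM (log2 −2.84, limma adjusted p = 2.85e-09). Wnt7b was at 2.05, 1.09 and 1.23 TPM (log2 −3.33, limma adjusted p = 8.08e-08) and Wnt8a at 0.244, 0.059 and 0.243 TPM (log2 −3.05), all far under the degron line. Wnt7a was listed at 0, 0 and 0.032 TPM. Sp5 was lower at 2.05, 1.61 and 2.25 TPM (log2 −2.39, limma adjusted p = 1.77e-07). Fzd2 was lower at 7.56, 7.53 and 6.77 TPM (log2 −1.91, limma adjusted p = 2.79e-09), whereas Fzd5 was higher at 76.5, 76.1 and 76.0 TPM (log2 1.65, limma adjusted p = 3.31e-09). Axin2 and Nkd1 did not separate the lines (log2 −0.08 and −0.05). The summed pluripotency list was 4030.0 to 4065.9 TPM in parental cells and the fibroblast list 192.8 to 197.8 TPM. Of 11 tested fibroblast genes 6 were higher in parental cells, among them Col1a1 (36.0 against 8.16 TPM) and Postn (6.44 against 0.199 TPM), and 1 was lower, Tagln (39.3 against 299.7 TPM), whose difference was larger than that of the sums. The tag, clone, feeder history and vehicle cannot be told apart here.

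In NPCs 26 of 33 tested genes (78.8%, against 46.6% of all genes) were called, 19 higher, against 25.9%, and 7 lower, against 20.7%, with a median log2 difference of 1.11, against 0.15. The largest rises were Rspo3 (21.8, 22.8 and 22.7 TPM, 31.6-fold, limma adjusted p = 7.41e-12), Fzd3 (112.0, 112.4 and 109.7 TPM, 31.0-fold, limma adjusted p = 5.74e-13), Nkd1 (74.4, 69.5 and 68.9 TPM, 29.0-fold) and Wnt5a (30.6, 31.5 and 33.2 TPM, 23.6-fold). Wnt3 read 61.0, 64.1 and 65.5 TPM, Axin2 82.4, 82.2 and 85.1 TPM and Ctnnb1 887.5, 890.5 and 863.3 TPM, each above the 96 h libraries of the degron line, although those are from another fit and no test was made. Fzd5 was lower at 2.78, 3.03 and 2.76 TPM (log2 −2.87), Tcf7l1 had a log2 difference of −1.84, and Wnt8a was listed at 0 in all 3 libraries. Unlike at 96 h, Wnt6 was lower in NPCs (log2 −2.06) and Sp5 was not called (log2 −0.12, limma adjusted p = 0.362). The neural list reached 3708.5 to 3774.6 TPM and the pluripotency markers Pou5f1 and Zfp42 were at 0. Rspo3, Dkk1, Wnt8b and Wnt9b entered this fit only through the NPCs and Wnt6 and Wnt8a only through the degron line, and without these 6 genes 15 of 27 rose and 5 fell in NPCs, and 1 was higher and 8 were lower in parental cells.

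Peaks at the starts of the genes were compared as fold enrichment in each library over its input, using the highest peaks per library in equal number (10000, or 7689 for RNAPII) within 1 kb of the start. In DMSO 15 and 16 of the 41 genes carried such a MED23 peak (36.6% and 39.0%, against 10.3% and 10.4% of all genes), and in dTAG-13 4 and 5 did (9.76% and 12.2%, against 5.27% and 4.92%). Over the 35 genes tested in RNA-seq the shares were 40.0% and 42.9% in DMSO, against 24.4% and 24.6% of all tested genes, and 11.4% and 14.3% in dTAG-13, against 11.9% and 11.2%. Wnt6 had the highest, with 34.1 and 34.4 in DMSO and 7.98 and 6.86 in dTAG-13, and no RNAPII or H3K27Ac peak in any library. Tcf7l1 had 29.4 and 31.6 against 4.35 and 4.90 over all deposited peaks, Axin2 15.8 and 23.7 against 3.84 and 3.88 and Lef1 12.9 and 17.3 against 3.62 and 3.32, whereas Lrp6 kept 16.1 and 18.6 beside 24.2 and 20.0. Only 15335 and 14551 MED23 peaks were deposited for dTAG-13, against 63045 and 58925 for DMSO, so lower enrichment at these genes and the lower number of peaks genome-wide cannot be told apart, and no test was made.

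RNAPII covered 10 and 9 of the genes in DMSO (24.4% and 22.0%, against 13.7% of all genes) and 6 in each dTAG-13 library (14.6%, against 11.1% and 10.7%). Over the 35 tested genes the order was the other way, with 28.6% and 25.7% in DMSO, against 35.9% and 36.0% of all tested genes, and 17.1% in dTAG-13, against 29.2% and 28.2%. Fzd7 had 21.1 and 22.2 in DMSO and 5.69 and 4.50 in dTAG-13, Wnt9a 18.7 and 18.7 against 5.41 and 5.00, and Fzd5 14.6 and 13 against 5.57 and 5.21. The steady-state RNA of Wnt9a and Fzd7 as deposited was not lower at 24 h, as given above. Nascent RNA of Fzd7 was lower by voom at 24 h (log2 -0.61, limma adjusted p = 0.0206), though its FPKM libraries overlapped DMSO. RNAPII peaks numbered 8182 and 7689 in dTAG-13 against 19853 and 19194. H3K27Ac peaks of this rank lay at 6, 6 and 3 genes in DMSO (14.6%, 14.6% and 7.32%, against 13.6%, 13.2% and 13.1% of all genes). In dTAG-13 they lay at 3, 7 and 0 (7.32%, 17.1% and 0%, against 9.32%, 14.2% and 6.47%), with no separation between groups. Over the 35 tested genes the shares were 17.1%, 17.1% and 8.57% in DMSO, against 35.1%, 34% and 34% of all tested genes. In dTAG-13 they were 8.57%, 20.0% and 0%, against 24.1%, 37% and 16.2%. At Axin2 the H3K27Ac peak was 11.0, 14.2 and 9.42 in DMSO and absent, 11.2 and 2.47 in dTAG-13 over all deposited peaks. H3K9me3, the mark set through TRIM28, had no peak within 1 kb of any of the 41 starts in any of 6 libraries, even over all deposited peaks, where 0.452% to 5.12% of tested genes had one.

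**Figure D5:**
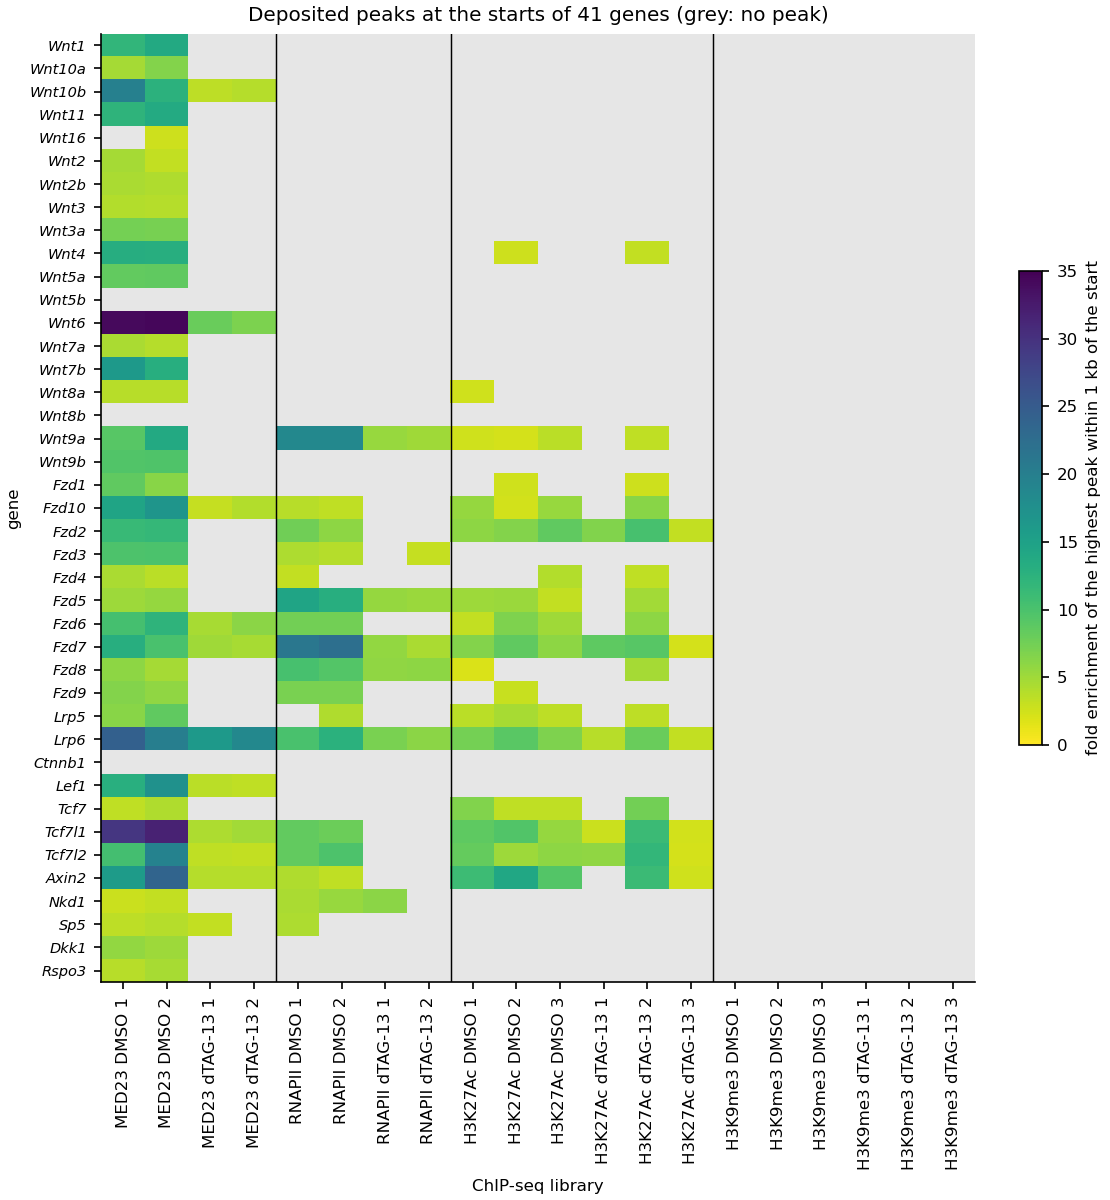
Fold enrichment of the highest deposited peak within 1 kb of the start of each of the 41 genes (rows) in each ChIP-seq library (columns), with grey for no peak. MED23 in DMSO reaches 34.4 at Wnt6, RNAPII reaches 22.2 at Fzd7 and 18.7 at Wnt9a, and the H3K9me3 columns are empty.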

How the data were processed

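RNA-seq, TT-SLAM-seq and ChIP-seq peak tables were used, and scRNA-seq, Hi-C and input libraries were not analysed here. The authors trimmed RNA-seq reads with cutadapt (2.4), aligned them to mm10 with STAR (2.7.5a) and deposited StringTie (2.0.6) TPM per gene and library. StringTie also gave coverage, a deposited signal that was read for relative depth only. TT-SLAM-seq reads were cleared of rRNA by the authors with STAR, aligned with SLAM-DUNK, counted over GENCODE VM19 genes with htseq-count and deposited as FPKM. For ChIP-seq the authors aligned with BWA and called peaks per library with MACS2 against input, depositing fold enrichment, a ratio, and −log10 p-values and q-values, which were not used for results. Builds and versions are from the submitters' processing notes and methods. Other versions are not given in the sources used here. Groups came from the GEO labels. The members, the wider lists and the tests were chosen with earlier results of these data known. TPM and FPKM were tested as log2(value + 0.5) in limma (3.58.1, R 4.3.3, lmFit and eBayes with trend, Benjamini-Hochberg over all genes), with at least 1 TPM or 0.5 FPKM in 3 libraries. One fit was made for each set of libraries: the time course, TT-SLAM-seq, the shERV line, and the parental, NPC and DMSO libraries together. The interaction was fitted over the time course and the shERV line. Comparisons within a set share their DMSO libraries. TPM holds no read depth, so no counting interval is given for it. In FPKM, 98% to 98.7% of the low values in a library lay within 0.1 of whole reads. Reads recovered from them over the gene span were fitted with voom, for genes with 10 reads in 3 libraries. On simulated data with 200 genes changed, a change counted as recovered at an adjusted p under 0.05 in limma, without the 2-fold limit. By this rule 95% of 2-fold and 100% of 4-fold changes were recovered over 15628 genes of RNA-seq. The rates were 39% and 71% over 10765 genes of FPKM, and 94% and 100% over 15989 genes of recovered reads. For RNA-seq and FPKM the simulated spread came from the DMSO libraries, whereas the reads were drawn with a fixed, assumed spread. The rates for reads therefore depend on that assumption and do not rank voom against the FPKM fit. The changed genes were drawn from those well above the filters, so these rates do not cover members with low values. Between 4 and 9 gene IDs were listed more than once in a StringTie file. Values per library are given for genes called in the time course, TT-SLAM-seq or the shERV line and for those at 10 TPM or more in DMSO. Other members may be named, and of the wider list the 3 largest rises and falls among genes called whose groups do not overlap. Promoters are from RefSeq (GRCm38.p6). Alternatives were the pseudocount, the filter, centring, a replicate block, leaving out a library, and for peaks the distance and the number used. Python (3.11.15), pandas (2.3.3) and matplotlib (3.10.9) did the rest.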

Additional observations from a re-analysis of the deposited data

Results flagged for a closer look

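Lef1, Sp5 and Wnt7a responded differently to 24 h of dTAG-13 in the shERV line and in the time course, by an interaction test in limma over all genes. The difference in log2 change, shERV line minus time course, was 2.45 for Lef1 (limma adjusted p = 6.39e-14), 1.74 for Sp5 (6.36e-10) and 1.03 for Wnt7a (8.29e-08), the last under 2-fold with a pseudocount of 1 (0.97). These 3 of 35 tested genes are 8.57%, beside 8.60% of all genes. Each direction held in all 3 libraries of its group for Lef1 and Sp5, whose DMSO and dTAG-13 libraries did not overlap in either line, while Wnt7a separated only in the shERV line. The lines differ in RNA selection, in the titled time of DMSO and possibly in Dox pretreatment, and these cannot be told apart from the line.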

How the results depend on the processing

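Centring each library on its median moved the genes called at 6 h from 1 to 0, took Nkd1 and added Wnt4 at 24 h, and left 21 of 23 at 96 h (Wnt5a and Lrp5 lost). It added Fzd5 to both shERV comparisons and took Wnt7a from that with Dox, took Wnt5b in parental cells, and in NPCs took Wnt4, Wnt5b, Wnt7b and Ctnnb1 and added Fzd6 and Wnt9a. The difference in library median that centring took off each log2 change was 0.29 at 24 h, 0.28 at 96 h, 0.24 in TT-SLAM-seq at 24 h, 0.16 in the shERV line, −0.19 in parental cells and 0.40 in NPCs. The splits of all genes called higher and lower went from 139 and 34 to 92 and 44 at 6 h, from 1819 and 360 to 886 and 919 at 24 h, from 3634 and 2228 to 2713 and 3364 at 96 h, from 50 and 26 to 37 and 31 in TT-SLAM-seq at 6 h and from 333 and 121 to 141 and 241 at 24 h. They went from 385 and 232 to 246 and 353 for dTAG-13 in the shERV line, from 241 and 317 to 293 and 252 for Dox with dTAG-13 against dTAG-13, from 393 and 1598 to 624 and 1161 in parental cells and from 4522 and 3608 to 3302 and 4910 in NPCs. With a pseudocount of 0.1 the calls became 5 at 24 h (Wnt5a and Dkk1 added), 5 for Dox with dTAG-13 against dTAG-13 (Fzd5 and Fzd8 added) and 5 for TT-SLAM-seq at 24 h (Fzd10, Fzd6, Lef1, Tcf7 and Lrp5), and with a pseudocount of 1 Dox kept 1 (Sp5). A mean of at least 5 TPM left 14 at 96 h, 1 for dTAG-13 in the shERV line and 7 in parental cells, all by testing fewer genes. Voom on recovered reads gave 1 at 2 h and 5 at 24 h. Leaving out 1 library gave 0 at 2 h, 1 at 6 h, 2 to 3 at 24 h, 20 to 23 at 96 h, 0 to 1 for TT-SLAM-seq at 24 h, 2 to 4 for both shERV comparisons, 8 to 11 in parental cells, 21 to 24 in NPCs (main value 26) and 2 to 4 in the interaction, where leaving out libraries was added after seeing the data. Each 96 h library left out took Wnt10a, Rspo3 and Dkk1 through the filter, each NPC library Wnt8b, Wnt9b, Rspo3 and Dkk1, and each DMSO library Wnt6 and Wnt8a from the parental and NPC comparisons. Without the second dTAG-13 library of the shERV line Fzd6 and Wnt7a were added, and without the second 24 h TT-SLAM-seq library Fzd10 was. For starts in peaks of every library, 5 kb gave 4 for H3K27Ac in DMSO (main value 2) and 7 for MED23 in dTAG-13 (4), and all deposited peaks gave 12 and, in dTAG-13, 5 for H3K27Ac (2 and 0), 14 for RNAPII in DMSO (9), 37 for MED23 in DMSO (15) and 10 in dTAG-13 (4). Leaving out a library gave 2 to 4 and 0 to 3 for H3K27Ac, 9 to 10 and 6 for RNAPII, and 15 to 16 and 4 to 5 for MED23. A replicate block gave the same counts, 0, 1, 3 and 23 in the time course, and the numbers did not pair the libraries (1 of 30 same-numbered correlations over 0.1). Over 32 called values of single members, 171 of 180 other settings and 177 of 183 with a library left out kept the call, the rest fell under the threshold, and none reversed. The causes were not tested. The nascent Wnt5a and Wnt3a values rest on 32 reads or fewer a library.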
